A study of Homo sapiens with 48 samples.

Results

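H3K27ac peaks of L3.6pl cells after 6 h of TWEAK were compared with those of vehicle-treated cells across chromosomes 1 to 22 and X. L3.6pl is an established human pancreatic ductal adenocarcinoma (PDAC) line; the labels name no genetic change in either group. The vehicle group received PBS, for a time the labels do not state, and the TWEAK group received TWEAK for 6 h. Each group had 3 ChIP-seq samples, but the deposited peaks are 1 merged broad-peak list per group, so no value below has a replicate error and no difference between the groups was tested. A peak of the TWEAK list was called kept if it shared at least 1 bp with a vehicle peak and gained otherwise, and a vehicle peak without a TWEAK peak was called lost. The 2 lists held 117837 of the 392221 peaks in the 16 lists of the series, with 57982 peaks after TWEAK and 59855 in vehicle. The other lists cover H3K27ac after 30 min of TWEAK and after 30 min and 6 h of TNFα, the NF-κB subunits RELA and RELB in vehicle and after both cytokines, and the AP-1 subunit FOSL1 in vehicle. Read depth behind the lists is unknown. Intervals given with shares are exact (Clopper-Pearson) 95% binomial intervals over peaks; they cover counting error only, since peaks of 1 merged list are not replicates.

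Acetylation of lysine 27 on histone H3 marks active promoters and enhancers. TWEAK, the ligand encoded by TNFSF12, signals through its receptor Fn14 (TNFRSF12A), lowers TRAF and cIAP control of the kinase NIK (MAP3K14), and thereby favours processing of the NFKB2 precursor to the partner of RELB, the noncanonical branch of NF-κB. RELA is the main activating subunit of the canonical branch, which TNFα engages quickly. FOSL1 is a FOS-family partner in AP-1, a factor that occupies many enhancers of epithelial cancer cells before any cytokine is added. Promoters of the epithelial genes EPCAM, KRT8, KRT18, KRT19, CDH1 and MUC1 all carried H3K27ac in both lists, 6 of 6. Of the other cell type markers, COL1A1 (1 of 4 fibroblast genes) and CD68 (1 of 4 immune genes) carried a promoter peak in both lists, and neither endothelial gene, PECAM1 or CDH5, did at its first start, though another annotated start of PECAM1 carried one in both lists.

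The sequences below lie at RELB summits of 6 h TWEAK whose RELB region touches a gained H3K27ac peak. They are shown because the NF-κB consensus was more frequent at such sites than at other RELB regions. Each run is the plus strand of hg38, 40 bases to either side of the summit, with matches to the NF-κB consensus and to the AP-1 motif TGANTCA in capitals. They belong to the peaks of 7 of the 10 such sites of highest fold enrichment, named by nearest gene, and to IL32 and NFKBIE from the gene lists. The IL32 window meets an annotated exon and is cut to the match with 9 bases on each side.
CMIP (chr16:81424934-81425014): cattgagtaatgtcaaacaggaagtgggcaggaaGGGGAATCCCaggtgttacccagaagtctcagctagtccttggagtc
GALNT18 (chr11:11622281-11622361): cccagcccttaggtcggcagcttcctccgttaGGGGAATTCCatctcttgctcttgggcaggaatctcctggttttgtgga
MAST4 (chr5:66891661-66891741): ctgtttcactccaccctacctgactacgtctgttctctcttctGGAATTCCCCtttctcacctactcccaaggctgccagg
DYRK1A (chr21:37631753-37631833): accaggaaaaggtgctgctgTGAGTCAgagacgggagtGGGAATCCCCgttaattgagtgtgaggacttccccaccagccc
AEBP2 (chr12:19382184-19382264): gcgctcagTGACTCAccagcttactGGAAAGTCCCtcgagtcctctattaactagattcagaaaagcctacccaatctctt
MYBPC1 (chr12:101604277-101604357): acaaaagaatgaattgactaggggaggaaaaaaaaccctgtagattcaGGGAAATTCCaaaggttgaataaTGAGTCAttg
C7orf33 (chr7:148620952-148621032): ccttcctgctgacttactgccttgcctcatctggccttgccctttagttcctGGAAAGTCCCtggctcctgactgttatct
IL32 (chr16:3065295-3065323): ctgtactcaGGGAGTTTCCCcagccagct
NFKBIE (chr6:44263534-44263614): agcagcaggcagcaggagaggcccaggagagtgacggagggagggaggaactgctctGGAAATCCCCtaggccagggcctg
Each of the 9 printed stretches held an NF-κB match. The remaining 3 of the 10 sites are not printed, so the printed set does not estimate how often such sites hold a match. The share over all such regions is given further on. The IL32 stretch held a pair of overlapping matches, one on each strand. An AP-1 match lay in the DYRK1A, AEBP2 and MYBPC1 stretches. The NFKBIE match sits inside the gene for IκBε, an inhibitor of NF-κB, and the IL32 match sits at the start of the gene for a proinflammatory cytokine. No statement on binding is drawn from the letters alone.

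**Figure D1:**
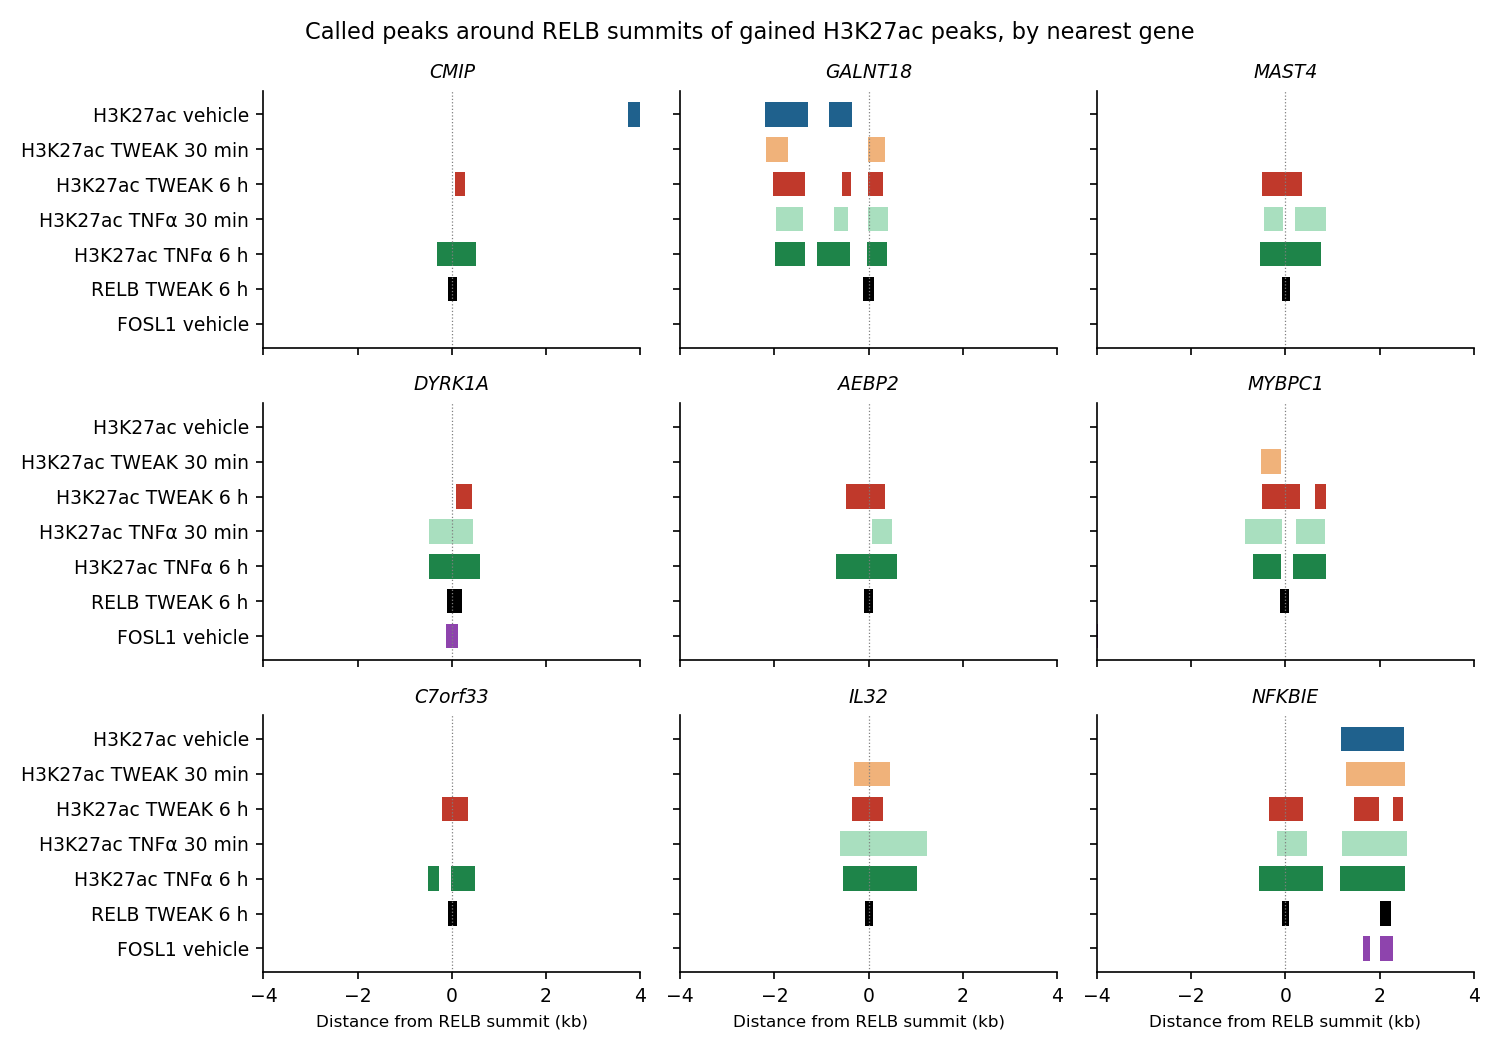
Called peaks (bars) in 7 lists, by distance in kb from the RELB summit of 6 h TWEAK, at the 9 loci whose sequences are printed. At all 9 loci a red bar (H3K27ac, TWEAK 6 h) touches the RELB region and no blue bar (H3K27ac, vehicle) meets that red bar; a FOSL1 bar meets the RELB region at the centre only at DYRK1A.

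Most H3K27ac peaks were present in both lists. After 6 h of TWEAK 50919 peaks were kept and 7063 were gained, 12.2% of the TWEAK list. In vehicle 47785 peaks were kept and 12070 were lost, 20.2% of the vehicle list. The gained share was 12.2% (11.9 to 12.5) and the lost share 20.2% (19.8 to 20.5), and there were 0.585 gained peaks per lost peak. With both lists limited to q values up to 0.001, the gained share was 5.87%, the lost share 21.6% and the ratio 0.238. In sequence covered, both lists shared 41.4 Mb, while gained peaks covered 2.22 Mb and lost peaks 4.69 Mb. More vehicle-only sequence lay in kept peaks (9.41 Mb) than in lost peaks, and 2.84 Mb of TWEAK-only sequence lay in kept peaks. The share gained ran from 6.87% on chromosome X to 14.5% on chromosome 5, and the share lost from 14.6% on chromosome 19 to 22.8% on chromosome 20, so gained and lost peaks came from every chromosome.

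The peaks that changed were short and weak. Gained peaks had a median length of 274 bp against 728 bp for the kept peaks of the TWEAK list, and lost peaks 329.5 bp against 989 bp for the kept peaks of vehicle. Peaks under 500 bp numbered 6428 of 7063 gained and 9717 of 12070 lost peaks (80.5%), against 33.7% and 21.5% of the kept peaks of the same lists. Only 17 gained peaks reached 1000 bp, and 167 lost peaks did. The shortest peak was 201 bp in the TWEAK list and 226 bp in the vehicle list. Median fold enrichment over the model background was 2.79 in gained peaks and 3.32 in kept TWEAK peaks, and 2.60 in lost and 3.25 in kept vehicle peaks. The evidence for the peaks differed more than their enrichment. The median −log10 q was 1.82 for gained and 2.25 for lost peaks, but 5.49 and 8.12 for the kept peaks of the TWEAK and vehicle lists. At −log10 q of 3 or more stood 845 gained peaks and 3102 lost peaks (25.7%).

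**Figure D2:**
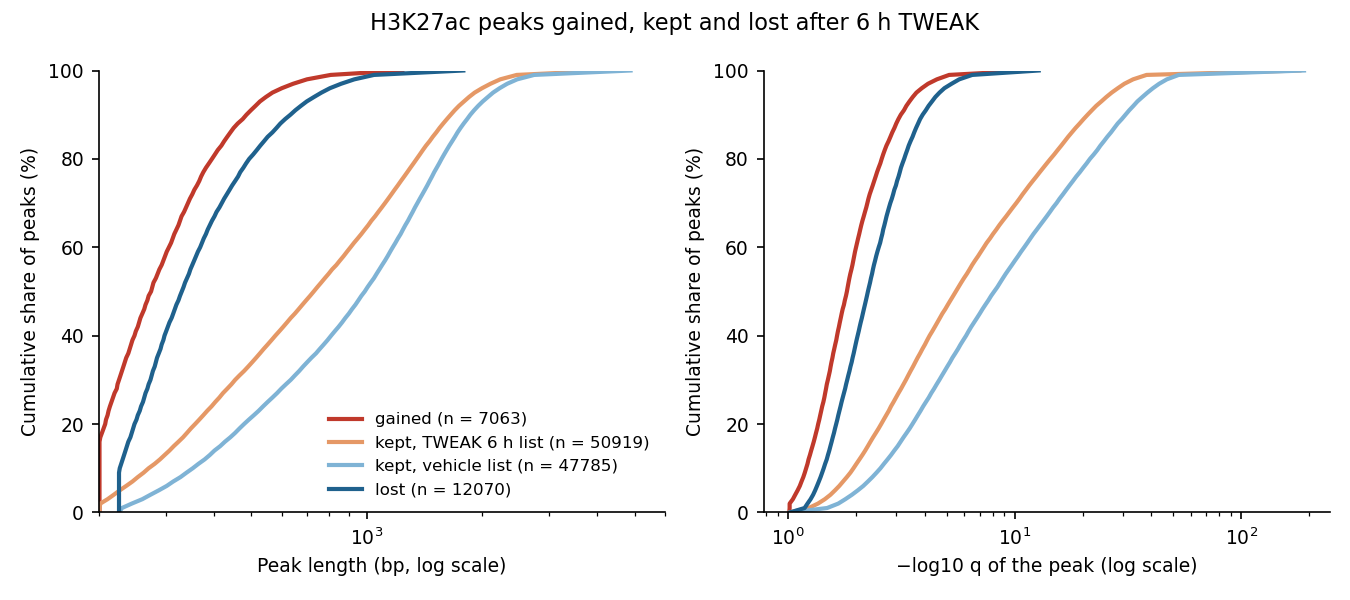
Cumulative share of peaks (%, y axis) by peak length in bp (left) and by −log10 q (right), both on log axes, for gained, kept and lost peaks. The gained and lost curves lie to the left of both kept curves, with medians of 274 and 329.5 bp against 728 and 989 bp.

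Few peaks lay within 100 bp of the edge of the 1 bp rule, but the classes depended on how much overlap was required. Within 100 bp of a vehicle peak lay 205 gained peaks (2.90%), and 1307 (18.5%) lay within 500 bp. For lost peaks, 204 (1.69%) lay within 100 bp of a TWEAK peak and 2053 (17.0%) within 500 bp. On the kept side, 475 TWEAK peaks (0.933%) and 432 vehicle peaks (0.904%) shared at most 100 bp with the other list. With 50% of a peak's length required to be covered, 15.2% of TWEAK peaks were gained and 28.7% of vehicle peaks were lost. Under the 1 bp rule these shares were 12.2% and 20.2%. Broad vehicle peaks were sometimes broken up, with 3725 vehicle peaks meeting 2 or more TWEAK peaks, against 678 TWEAK peaks meeting 2 or more vehicle peaks.

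Gained and lost H3K27ac lay away from promoters. A promoter here is the 1000 bp on each side of the 5′ end of a protein-coding gene in GENCODE 44. Promoters were met by 203 of 7063 gained peaks (2.87%, 2.497 to 3.29) and by 334 of 12070 lost peaks (2.77%, 2.48 to 3.08), against 22.5% (22.1 to 22.8) of kept TWEAK peaks and 22.99% (22.6 to 23.4) of kept vehicle peaks. The intervals of gained and lost peaks overlapped, while neither met those of the kept peaks. The gap was smaller at matched length but present in each class up to 999 bp. Outside tandem repeats, 3.33% (2.66 to 4.12) of gained and 6.40% (5.61 to 7.27) of kept TWEAK peaks under 250 bp met a promoter. At 250 to 499 bp the shares were 2.69% (2.17 to 3.31) and 8.73% (8.23 to 9.24). Among peaks of 500 to 999 bp outside tandem repeats, 4.15% (2.67 to 6.10) of 579 gained and 2.41% (1.798 to 3.15) of 2118 lost peaks met a promoter, against 17.2% (16.6 to 17.8) of kept TWEAK peaks. Introns held 47.6% of gained and 49.6% of lost peaks, and sequence between protein-coding genes 45.2% and 43.2%. The nearest 5′ end was at a median of 56640 bp from gained and 55449 bp from lost peaks, but 29679 bp from kept TWEAK peaks. The 500 bp around the midpoint had a median GC content of 43.2% in gained and 43.0% in lost peaks and 48.6% in kept TWEAK peaks, with a median of 5 CpG dinucleotides in gained and in lost peaks and 8 in kept ones.

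RELB after 6 h of TWEAK met few gained peaks, and the count depends on tandem repeats, where many RELB regions of every list lie (59.4% of the 6 h TWEAK list and 92.8% of the vehicle list). A region is placed there if the 1000 bp around it matches itself at 0.4 or more of its bases after a shift of up to 400 bp. Over all regions, 282 gained peaks (3.99%, 3.55 to 4.48) and 233 lost peaks (1.93%, 1.69 to 2.19) met RELB, against 3.69% (3.53 to 3.86) of kept TWEAK peaks. Outside tandem repeats on both sides the counts were 52 of 6323 gained peaks (0.822%, 0.615 to 1.08) and 19 of 11349 lost peaks (0.167%, 0.101 to 0.261), against 1.79% (1.67 to 1.91) of 48808 kept TWEAK peaks. Tandem repeats held 10.5% of gained, 5.97% of lost and 4.15% of kept TWEAK peaks. RELB was mapped after 6 h of TWEAK, where by the rule gained peaks had an H3K27ac peak and lost peaks had none. Gained peaks met RELB more often than lost peaks with and without repeats. Against kept peaks their intervals overlapped with repeats and lay lower without them.

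Length changed the order between gained and kept peaks. Outside tandem repeats, RELB met 21 of 579 gained peaks of 500 to 999 bp (3.63%, 2.26 to 5.49), 1.39% (1.21 to 1.59) of 15280 kept TWEAK peaks and 0.236% (0.0767 to 0.550) of 2118 lost peaks of that length. Below 250 bp the shares were 0.528% (0.281 to 0.901) for gained and 0.375% (0.200 to 0.640) for kept TWEAK peaks, which overlap. At 250 to 499 bp they were 0.490% (0.280 to 0.794) and 0.701% (0.562 to 0.864), which overlap as well. At 1000 bp and over there were 2 RELB-bound peaks among 16 gained, too few to place.

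FOSL1, mapped in vehicle, met changed peaks far less often than kept peaks. It met 1213 gained peaks (17.2%, 16.3 to 18.1) and 2682 lost peaks (22.2%, 21.5 to 22.97), against 57.4% (56.9 to 57.8) of kept TWEAK and 62.5% (62.1 to 62.9) of kept vehicle peaks. Outside tandem repeats the shares were 12.3% for gained, 20.0% for lost, 56.4% for kept TWEAK and 61.7% for kept vehicle peaks. The rising order of gained, lost and kept shares held in all length classes up to 999 bp, and at 500 to 999 bp FOSL1 met 22.3% (18.95 to 25.9) of gained, 33.4% (31.4 to 35.4) of lost and 56.6% (55.8 to 57.4) of kept TWEAK peaks. Below 250 bp the intervals of gained and lost peaks overlapped. FOSL1 was mapped in vehicle, where by the rule gained peaks had no H3K27ac peak and lost peaks had one. With both lists limited to q values up to 0.001, FOSL1 met 31.6% of gained and 42.6% of lost peaks, and RELB, repeats included, 8.90% and 3.01%. Shares of kept peaks at this limit are not given, and peak strength was not matched between changed and kept peaks.

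**Figure D3:**
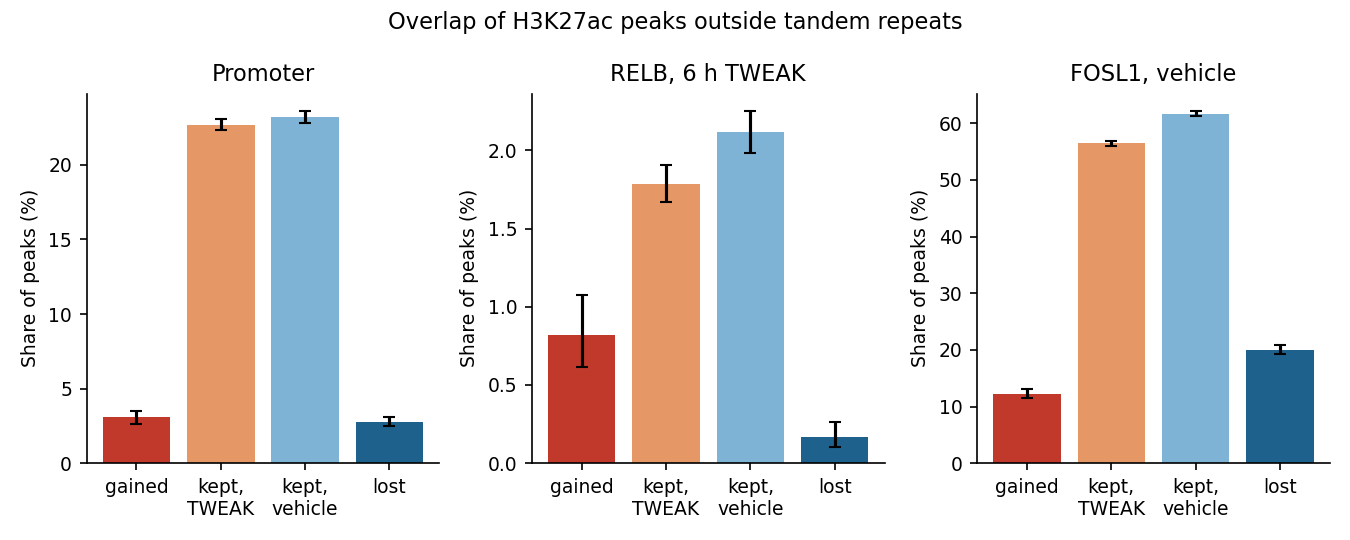
Share of H3K27ac peaks (%, y axis) outside tandem repeats that meet a promoter, a RELB region of 6 h TWEAK or a FOSL1 region of vehicle, for each peak class; bars are shares and error bars exact 95% binomial intervals. RELB meets 0.822% of gained, 1.79% of kept TWEAK and 0.167% of lost peaks.

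**Figure D4:**
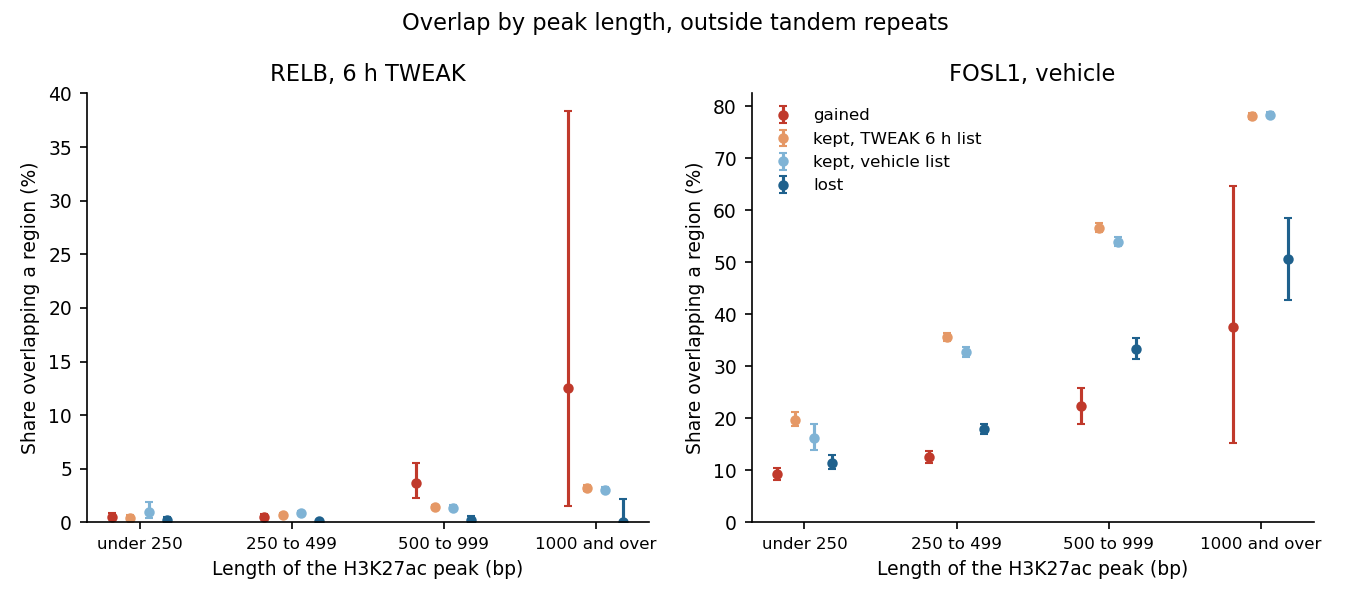
Share of H3K27ac peaks (%, y axis) outside tandem repeats meeting RELB (left) or FOSL1 (right) by peak length in bp; points are shares and error bars exact 95% binomial intervals. At 500 to 999 bp RELB meets 3.63% of gained and 1.39% of kept TWEAK peaks, and FOSL1 meets 22.3% and 56.6%.

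Seen from RELB, the sites at gained peaks were a small group that met FOSL1 less often and held the NF-κB consensus more often than other RELB regions. Of 1639 RELB regions outside tandem repeats, 52 (3.17%) touched a gained peak and 892 (54.4%) a kept TWEAK peak. Another 20 (1.22%) touched a lost peak, and 675 (41.2%) touched none of these. Kept vehicle peaks were not checked, so a region counted below as having no peak may still lie in one. FOSL1 met 12 of the 52 regions at gained peaks (23.1%, 12.5 to 36.8), 78.6% (75.7 to 81.2) of those at kept peaks and 47.4% (43.6 to 51.3) of those with no peak. Regions with no peak are therefore not known to lack acetylation in vehicle. Their FOSL1 interval lies above that of the 52. The NF-κB consensus stood within 100 bp of the RELB summit in 45 of the 52 (86.5%, 74.2 to 94.4), in 66.9% (63.7 to 70.0) of regions at kept peaks and in 60.6% (56.8 to 64.3) of regions with no peak. Windows of the same length at the midpoints of all H3K27ac peaks of 6 h TWEAK held it in 6.93%. The AP-1 motif TGANTCA, which reads alike on both strands, stood in 34.6% (22.0 to 49.1) of the 52, 32.5% (29.4 to 35.7) of regions at kept peaks and 39.4% (35.7 to 43.2) of regions with no peak, and in 10.2% of the midpoint windows. For FOSL1 the interval of the 52 lay below both others, and for the AP-1 letters it overlapped both. The peak names of the RELA list of 30 min TNFα mention only a first replicate, so it is not settled that this list merges all samples of its group. RELA in that list met 39 of the 52 (interval 61.1% to 86.0%), 86.8% (84.4 to 88.9) of regions at kept peaks and 71.9% (68.3 to 75.2) of regions with no peak. Of the 52, 2 met a RELB region of vehicle (3.85%, 0.469 to 13.2). The shares were 14.7% (12.4 to 17.2) of regions at kept peaks and 9.19% (7.11 to 11.6) of regions with no peak. Both intervals overlapped that of the 52. The median RELB fold enrichment was 8.07 at gained peaks, 7.23 at kept peaks and 6.77 with no peak.

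**Figure D5:**
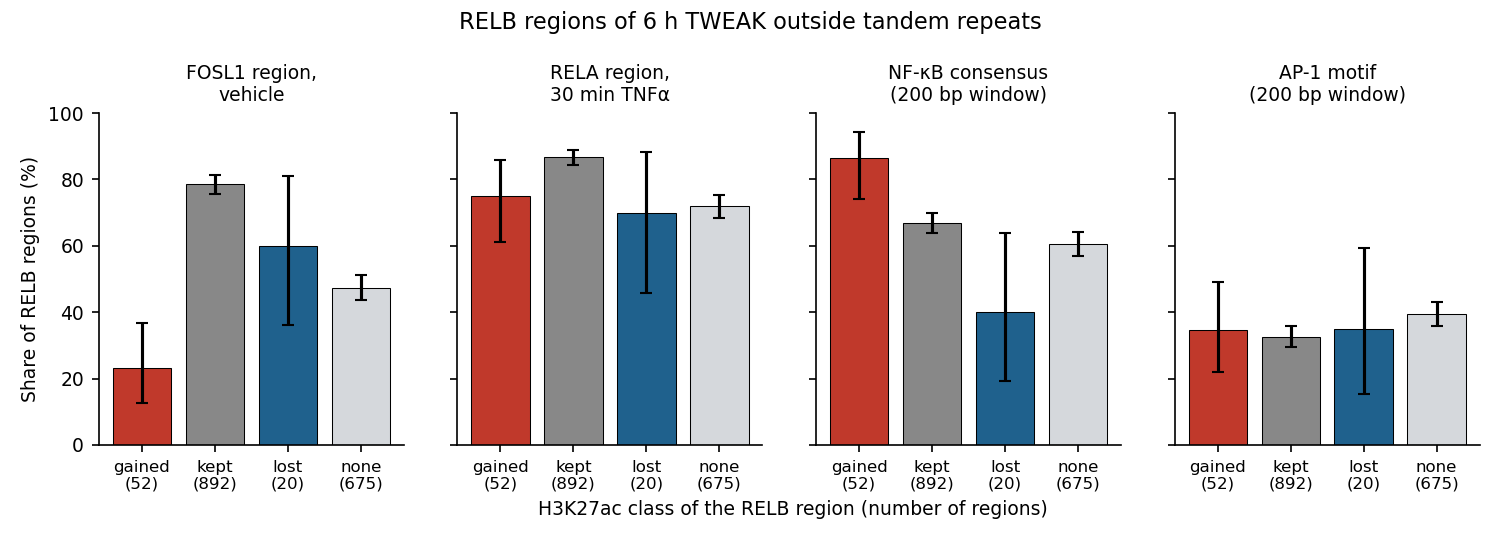
Share of RELB regions of 6 h TWEAK outside tandem repeats (%, y axis) that meet FOSL1, meet RELA of 30 min TNFα, or hold an NF-κB or AP-1 match in 200 bp around the summit, by H3K27ac class (x axis, number of regions in brackets); error bars are exact 95% binomial intervals. FOSL1 is at 23.1% for gained against 78.6% for kept, and the NF-κB consensus at 86.5% against 66.9%. The class none met no TWEAK peak and no lost peak, but kept vehicle peaks were not checked.

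The 52 gained peaks outside repeats that met RELB were longer than the other gained peaks, with a median of 419.5 bp against 277 bp, and ran from 201 to 1240 bp. Their fold enrichment ran from 1.53 to 3.95 with a median of 2.92, against 2.77 in the 6271 gained peaks without RELB. A promoter was met by 4 of the 52, and 28 lay within 50 kb of a protein-coding 5′ end. Of the 6271 without RELB, 190 met a promoter and 3206 lay within 50 kb of such an end. The highest was 19559 bp from the start of CMIP, an adaptor linked to T cell signalling, at 3.95-fold. TPD52 was nearest to the next at 3.77-fold. GALNT18, a glycosyltransferase gene, had a peak 308 bp from its start at 3.64-fold. A peak inside MAST4 reached 3.62-fold and 843 bp. DYRK1A, a kinase gene, was nearest to a peak inside KCNJ6 at 3.58-fold. AEBP2, whose product joins Polycomb complex PRC2, had a peak of 828 bp 21474 bp away at 3.52-fold. MYBPC1 (3.38-fold), C7orf33 (3.37-fold) and PDC (3.27-fold) followed among the 10 of highest enrichment.

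The IL32 peak spanned 649 bp over the gene's start at 3.05-fold, with RELB at 8.02-fold. No vehicle peak lay within 1000 bp of any annotated start of a protein-coding IL32 transcript, and TNFRSF12A, the TWEAK receptor gene, lies within 50 kb of the same peak. The NFKBIE peak lay 1848 bp from the start, inside the gene, at 2.71-fold over 705 bp, with RELB at 6.24-fold, while the NFKBIE promoter itself carried a peak in both lists. The other promoter peaks, named after their values were seen, were at IFNAR2, a chain of the type I interferon receptor (3.03-fold), and at TMEM265 (2.92-fold). Also named after seeing the values, NAMPT, JAG1, PRDM1, ETV3 and LYN were each the nearest gene of 1 peak, at 3.10-, 3.10-, 2.79-, 3.09- and 2.78-fold. In that order, their starts lay 139242, 522191, 232936, 16160 and 13144 bp from the peaks. They are a selection of the nearest genes.

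The other treatments were compared with the same vehicle list, so their values are set side by side and no overlap is read as a result. At the IL32 peak, fold enrichment was 3.07 at 30 min and 3.05 at 6 h of TWEAK, and 3.13 and 2.88 at the same times of TNFα. At the NFKBIE peak the 30 min TWEAK list had none, the 6 h TWEAK list 2.71, and the TNFα lists 2.13 and 2.41. At the MAST4 peak no peak was listed at 30 min of TWEAK, and the values were 3.62 after 6 h of TWEAK and 3.81 and 3.73 after 30 min and 6 h with TNFα. CMIP and C7orf33 had a value only at 6 h, with 3.95 and 3.37 for TWEAK and 3.41 and 3.80 for TNFα. The PDC peak was listed for 6 h of TWEAK alone among the 5 H3K27ac lists. Of the 52 peaks, 17 met a peak of 30 min TWEAK, 38 of 30 min TNFα and 48 of 6 h TNFα. Of the 6271 gained peaks without RELB the corresponding counts were 1582 (25.2%), 1484 (23.7%) and 2231 (35.6%). Among gained peaks of 500 bp and over, 21 of 23 with RELB and 323 of 572 without RELB met a 6 h TNFα peak. Over the whole lists, the gained and lost shares against vehicle were 17.6% and 24.6% at 30 min of TWEAK, 18.5% and 27.8% after TNFα for 30 min, and 16.7% and 15.6% after TNFα for 6 h.

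The 19 lost peaks outside repeats that met RELB were few and none met a promoter. FOSL1 met 10 of them and RELA of 30 min TNFα met 13. A RELB region of vehicle met 7 of the 19 (36.8%, 16.3 to 61.6), against 1 of the 52 gained peaks. A 6 h TNFα peak met 16 of the 19. Where FOSL1 was met, it ran from 2.28-fold (nearest to ATP6V0D2) to 14.40-fold (nearest to SLC25A25). Nearest to CA2, ATP6V0D2, TAF11L7 and OR4F16, FOSL1 and both RELB lists stood at 2.28- to 4.05-fold. H3K27ac fold enrichment of the 19 lost peaks ran from 1.67 to 3.62, with a median of 2.44.

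The strongest gained peaks carried no RELB. The highest outside tandem repeats lay inside IL31RA, a cytokine receptor subunit, at 5.79-fold over 457 bp. Peaks at the promoters of AK7, an adenylate kinase, and MAST3, a kinase, followed at 4.79- and 4.73-fold. MYO1D, a myosin gene, held one at 4.63-fold, and RHPN1 and TMEM260 each held one at 4.59-fold. IGFBP3, a carrier of insulin-like growth factors, was nearest to a peak 232089 bp away at 4.57-fold. YAE1 (4.55-fold), EPC2 (4.46-fold) and SLC38A4 (4.44-fold) completed the 10. FOSL1 met 2 of these, those named for MYO1D and EPC2, and RELA of 30 min TNFα met none. Of the 10, RHPN1 and SLC38A4 had no peak in any other H3K27ac list.

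The strongest lost peaks ranged from promoters to sites far from any gene. The highest outside tandem repeats was 468367 bp from NUPR2, at 5.11-fold in vehicle over 343 bp, and met FOSL1 and RELA of 30 min TNFα. LMCD1, which encodes a LIM domain protein, was nearest to the next, at 4.84-fold, which met both as well. MRPS27, SI and LGR5, the last a stem cell marker of the intestine, were nearest to peaks of 4.72-, 4.62- and 4.62-fold. MAGEA11 (4.56-fold), PPP1R11 (4.54-fold), PVRIG (4.43-fold), DLK1 and GALNT17 (both 4.41-fold) followed, with promoters met at PPP1R11 and PVRIG. Peaks nearest to DLK1 and GALNT17 met strong FOSL1 regions, at 16.98- and 11.79-fold. The LGR5 peak, inside TSPAN8, was listed in vehicle alone among the 5 H3K27ac lists, while the other 9 were listed in at least 1 other treatment.

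Many kept peaks were shorter after TWEAK, while those of like extent in both lists had like enrichment. Of 42765 vehicle peaks paired one to one with a TWEAK peak, 74.4% were shorter after TWEAK, with medians of 946 bp in vehicle and 789 bp after TWEAK and a median length ratio of 0.905. Enrichment was compared for the 23750 pairs with at least 80% reciprocal overlap, a filter that leaves out pairs whose extent changed more. Over these pairs the median log2 ratio of fold enrichment, TWEAK over vehicle, was 0.04, with an SD over pairs of 0.14. The 480 pairs that met RELB regions of 6 h TWEAK absent from the vehicle RELB list, outside repeats, had a median of 0.05 (SD 0.11), and the other 23270 a median of 0.04 (SD 0.14). Pairs at promoters stood at 0.05 and pairs with FOSL1 at 0.04. A log2 ratio over 0.5 was found in 92 pairs and one under -0.5 in 37, and RELB met 1 and 0 of them. The highest ratios belonged to pairs nearest to NPY5R (0.84), IRS2 (0.77), SPEF2 (0.76), ARRDC5 (0.76) and TSPYL4 (0.73), and the lowest to those nearest to CDH8 (-0.97), ZNF549 (-0.66), APBB1 (-0.64), TRMT44 (-0.63) and PWP1 (-0.62). IRS2 encodes an insulin receptor substrate and CDH8 a cadherin, and both stood far from their peaks, at 362200 and 1513801 bp.

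Gained and lost peaks were also counted per gene, within 50 kb of the 5′ end. Of 19962 protein-coding genes, 25.3% had a gained peak and 36.7% a lost peak there. A promoter peak appeared after TWEAK, with none in vehicle, at 137 genes (0.686%), and one disappeared at 254 genes (1.27%). A gained RELB-bound peak outside repeats lay within 50 kb of 64 genes (0.321%). Promoter values below are the fold enrichment of the strongest peak meeting the promoter, in vehicle and then after TWEAK.

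In the noncanonical pathway, 3 of 10 genes had a gained peak and 6 of 10 a lost one. The RELB promoter carried 8.43-fold enrichment in vehicle and 8.46-fold after TWEAK, and the NFKB2 promoter, the source of its partner, 2.61- and 2.88-fold. MAP3K14, which encodes NIK, stood at 3.50- and 4.07-fold at its promoter, with 3 lost peaks nearby. BIRC2 and BIRC3, the cIAP genes, stood at 2.502 and 2.49 in vehicle and at 2.38 and 2.37 after TWEAK. At the first start of TNFRSF12A no peak was listed, though another annotated start of the gene carried one in both lists.

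In the canonical pathway and its feedback, 9 of 19 genes had a gained and 9 of 19 a lost peak, and 17 of 19 promoters carried H3K27ac in both lists. NFKBIA, the gene for IκBα, had 3 gained and 1 lost peak, with its promoter at 3.27- and 3.48-fold. TNFAIP3, the gene for the feedback deubiquitinase A20, had 2 gained and 2 lost peaks, with the promoter at 3.93- and 4.03-fold. IKBKB, an IκB kinase gene, had 3 gained and 4 lost peaks, and NFKBIB had 2 and 4. TNIP1, which encodes an A20 partner, had none of either, and its promoter stood at 2.48- and 3.24-fold.

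Chemokine and cytokine genes had a gained peak at 9 of 22 and a lost peak at 10 of 22. IL32 was the one member whose promoter went from no peak to a peak. CX3CL1 had 2 gained and 2 lost peaks, CCL20 no gained and 3 lost, and IL1B 1 gained and 4 lost, one of the lost ones at its promoter beside a kept peak. Survival and death genes had a gained peak at 6 of 21 and a lost one at 8 of 21. BAK1, a pore-forming death effector, had 3 gained and 2 lost peaks, and TNFRSF10D, a decoy receptor for TRAIL, had 2 gained and no lost peaks, one of the gained ones with RELB.

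AP-1 genes had a gained peak at 6 of 13 and a lost one at 7 of 13. FOS and JUNB each had a gained peak that met the promoter beside a kept one, and their promoters stood at 2.64 and 1.86 in vehicle and 2.89 and 1.88 after TWEAK. Migration, matrix and adhesion genes had a gained peak at 13 of 26 and a lost one at 13 of 26. FN1, the fibronectin gene, had a promoter peak after TWEAK only, at 2.70-fold, and MMP10, a stromelysin gene, had one in vehicle only, at 2.05-fold. Lineage factors had a gained peak at 7 of 14 and a lost one at 7 of 14, with GATA6 holding a gained peak at its promoter beside a kept one at 2.19- and 2.52-fold. TP63 had a lost peak at its promoter beside a kept one, at 2.07- and 2.52-fold. TEAD and YAP pathway genes had a gained peak at 7 of 13 and a lost one at 8 of 13, and the first start of WWTR1, the TAZ gene, had a peak in vehicle only, while another WWTR1 start carried one in both lists. In the same list AMOTL2 had a gained peak at its promoter beside a kept one, at 3.07- and 3.21-fold, and ANKRD1 a lost peak beside a kept one, at 2.51- and 2.82-fold. Housekeeping genes had a gained peak at 5 of 12 and a lost one at 5 of 12.

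These gene lists had more H3K27ac peaks nearby than all genes, with medians of 3.5 to 9 TWEAK peaks against 3 within 50 kb, and housekeeping genes too stood above the 25.3% and 36.7% of all genes. Per peak the lists stood on both sides of all genes. Of the TWEAK peaks within 50 kb of a start, counted once per gene, 8.26% were gained over all genes, 11.9% for the canonical pathway, 5.26% for the noncanonical pathway and 6.67% for housekeeping genes. Of the vehicle peaks 13.9% were lost over all genes, 14.2%, 14.8% and 8.57% for the same lists. The study's gene groups were matched by symbol to protein-coding genes, which left 492 of 626 and 263 of 310 genes. Among the 492 genes that the study grouped as responding to both cytokines or to TWEAK, a choice made on its own RNA libraries of the same line and no independent evidence, 29.5% had a gained and 53.3% a lost peak, and 6.62% of their TWEAK peaks were gained and 16.2% of their vehicle peaks lost. For the 263 matched genes grouped as specific to TNFα the values were 38.4%, 50.2%, 7.58% and 11.99%. Gained RELB-bound peaks lay within 50 kb of 5 of the 492 genes, namely GALNT18, IL32, NFKBIE, SLC29A1 and TNFRSF12A, and of 2 of the 263, CDC42EP4 and SRCAP, against 64 of all 19962 genes (0.321%). The genes are not separate peaks, since IL32 and TNFRSF12A share one and NFKBIE and SLC29A1 another.

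A few loci gathered several changes. No gene had more than 5 gained peaks within 50 kb, and 5 genes had that many. GCM1, a placental transcription factor gene, had 5 gained and 2 lost among 6 TWEAK peaks. STPG4 and its neighbours CALM2, a calmodulin gene, and ENSG00000273269 had 5 gained and no lost peaks, and share the same stretch of chromosome 2. FTH1, the ferritin heavy chain gene, had 5 gained and 3 lost. Lost peaks numbered 6 or more at 9 genes. Of these TIMP3, an inhibitor of metalloproteinases, had the most, with 7 of 12 vehicle peaks lost, no peak gained and the promoter peak kept. Among those tied at 6, the genes with fewest vehicle peaks were GNLY, ATOH8, EPAS1 and ARVCF. GNLY, ATOH8 and EPAS1, the last encoding HIF-2α, each had 6 lost, of 9, 10 and 10 vehicle peaks, and ARVCF, a catenin gene, had 6 of 11.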

How the data were processed

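ChIP-seq of L3.6pl cells was compared between vehicle and 6 h of TWEAK. Reads were aligned by the authors to hg38 using Bowtie2 2.5.0 (SAMtools 1.18 is also named in the processing notes) and called broad H3K27ac peaks and narrow RELA, RELB and FOSL1 peaks with MACS2 against input, 1 merged list per group. Per the file headers and format, the deposited columns are fold enrichment (a ratio over the model background) and −log10 q. A merged list gives no replicate error, and the labels do not say whether samples came from separate cultures. Peaks were intersected with numpy 2.4.6 and pandas 2.3.3, checked against bedtools 2.31.1 on simulated intervals, and annotated with GENCODE 44; sequences were read from hg38 with pysam 0.24.0, and intervals came from scipy 1.17.1. Named peaks are the 10 gained, lost and RELB-bound gained peaks of highest fold enrichment outside tandem repeats, the 5 highest and 5 lowest pair ratios, the 5 genes with most gained and most lost peaks, and gene-list members with a gained or lost promoter peak or the most peaks within 50 kb; pathway members cited for their role were added. Members and lists were chosen with earlier results of these data known, and the study chose its RNA-defined lists on its own libraries. The NF-κB consensus was searched on both strands. One RELB-bound gained peak among the 10 is not reported here. The remaining H3K27ac, RELA and RELB lists served only for values set side by side.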

Additional observations from a re-analysis of the deposited data

How the results depend on the processing

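No paired analysis was possible because each group has 1 merged peak list, and for the same reason no replicate could be left out. Of 55 values recomputed, 45 moved beyond the counting interval of the reported one and 10 did not. With the lists limited to q values up to 0.001, the gained share was 5.87%, the lost share 21.6%, gained per lost 0.238, gained and lost promoter shares 5.18% and 4.49%, RELB shares 8.90% and 3.01%, and FOSL1 shares 31.6% and 42.6%. With 50% of a peak's length required to be covered, gained and lost shares were 15.2% and 28.7%, gained per lost 0.514, the lost promoter share 3.21%, and FOSL1 shares 19.4% and 29.6%. With partners allowed within 500 bp, gained and lost shares were 9.93% and 16.7%, and promoter shares 2.05% and 2.20%. Outside tandem repeats, where repeat peaks left both lists, the gained share was 11.8%, gained per lost 0.567, promoter shares 4.38% and 3.17%, RELB shares 0.814% and 0.183%, and FOSL1 shares 12.8% and 20.2%. With the 40000 strongest peaks of each list, gained and lost shares were 9.62% and 14.5%, gained per lost 0.664, promoter shares 5.38% and 4.99%, RELB shares 7.56% and 3.19%, and FOSL1 shares 33.4% and 45.9%. Promoters of 2500 bp gave 4.86% and 4.87%, and all transcript starts 5.79% and 5.65%. With 500 bp around the midpoint the gained RELB share was 4.63% and the FOSL1 shares 24.3% and 31.2%. RELB regions absent from vehicle gave 1.09% and 0.406%. Under every setting tried, gained peaks were fewer than lost, met RELB more often and FOSL1 less often. The order of the promoter shares changed. The RELB shares include repeats except in the setting outside them. With repeats 282 gained and 233 lost peaks met RELB, against 52 and 19 outside repeats on both sides. RELB was mapped after 6 h of TWEAK, where by the rule gained peaks had an H3K27ac peak and lost peaks had none. Depth is unknown and sets which weak peaks are listed; its part in gained and lost calls was not tested.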
